A study of Arabidopsis thaliana with 47 samples.

Results

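The first 2 days of culture of Arabidopsis leaf mesophyll protoplasts were followed in 8 of the 47 RNA-seq libraries of the series: replicates 4 to 6 of the Day 2 control culture and replicates 4 to 8 of freshly isolated (Day 0) protoplasts. The members were taken by these labels alone. The study asked how mature leaf cells, freed of their walls, return to division, and it also cultured protoplasts to later days and with inhibitors. Day 2 control protoplasts were Columbia-0 cells released from the rosette leaves of plants aged 23 days after sowing, embedded in alginate gel and kept in darkness for 2 days in Gamborg B5 medium with 2% glucose, 0.4 M mannitol, 1 mg/L of the synthetic auxin 2,4-D and 176 µg/L of the synthetic cytokinin thidiazuron, with no inhibitor. Day 0 protoplasts came from Columbia-0 leaves of the same kind and were pelleted directly after isolation, without embedding or culture medium. The plants had grown at 22 °C in continuous light. Cultured protoplasts were freed from the gel in citrate solution before extraction, a step that Day 0 protoplasts did not go through, so gel release, darkness, medium, hormones and time cannot be told apart in this comparison.

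A mesophyll cell is a mature photosynthetic cell that has left the cell cycle. Enzymatic removal of the wall is a wounding, osmotic and oxidative stress, and freshly made protoplasts are known for high levels of transcripts for chaperones and detoxifying enzymes. In medium with auxin and cytokinin a part of the cells builds a new wall, enlarges its nucleolus, replicates its DNA and later divides.

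Counts of the lowest-numbered splice variant of each locus summed to between 7237446 and 11152988 per library at Day 2 and between 6785283 and 13664713 at Day 0. Levels are given as counts per 1000000 (CPM) after scaling by trimmed mean of M values, and 3 counts, taken here as the floor for fold changes, corresponded to 0.251 to 0.724 CPM. Pairs of libraries correlated at r = 0.948 to 0.982 within Day 2 and at 0.977 to 0.995 within Day 0, on log2(CPM + 1) across loci, which are not independent replicates. The first principal component took 85.7% of the variance and separated the days. Day 2 replicate 5 lay nearest to Day 0 (r = 0.874 to 0.892) and Day 2 replicate 6 farthest (r = 0.792 to 0.819), and Day 0 replicate 4 stood apart on the second component, which took 5.4%. The scaling factors differed between the days, 0.94 to 1.15 at Day 2 and 0.59 to 0.63 at Day 0. Loci were tested with the quasi-likelihood method of edgeR. A locus was called changed where its log2 fold change (Day 2 control minus Day 0) exceeded 2 in size and neither p nor the p adjusted after Benjamini and Hochberg reached 0.01, and "rose" and "fell" are used for such loci only. The methods call the replicates biological, but whether all 5 Day 0 libraries came from separate isolations is not given. The p-values rest on a spread between replicates that was estimated over 26 libraries, later days and inhibitor cultures included.

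All 10 mesophyll markers, genes of light harvesting, carbon fixation and photorespiration, were detected, and their summed level was 1590, 2090 and 1710 CPM in Day 2 control protoplasts, against 2490, 4290, 5240, 8770 and 5500 CPM in Day 0 protoplasts. Day 0 replicate 4 was the lowest of the Day 0 libraries in this sum, and no Day 2 library reached it. Markers of other leaf cell types were higher in sum at Day 2. The 8 guard cell markers in the files summed to 21.6, 30.2 and 22 CPM at Day 2, against 9.26 to 12.3 CPM at Day 0, and the 9 epidermis markers to 10.9, 20.7 and 12.8 CPM, against 3.94 to 6.94 CPM. Among them FAMA, a regulator of guard cell identity, rose (8.65 to 14.5 CPM at Day 2, 0.73 to 1.93 CPM at Day 0), as did the epidermal wax gene FDH (1.76 to 3.23 against 0.146 to 0.597 CPM). The vascular and bundle sheath markers summed to 136, 96.9 and 195 CPM at Day 2, against 15.2 to 33.4 CPM at Day 0. Most of the Day 2 sum was the plasma membrane proton pump gene AHA3, with 131, 90.9 and 191 CPM at Day 2, against 2.17, 3.87, 4.33, 1.46 and 1.61 CPM at Day 0 (5.67 ± 0.26). The 7 tested members moved both ways, with 2 higher (28.6%, beside 18.5% of all loci) and 3 lower (42.9%, beside 4.78%). The sugar exporters SWEET11 and SWEET12 were among those that fell, and SWEET12 had 0.335, 0.44 and 0.262 CPM at Day 2, against 4.83, 15.8, 18.5, 12.9 and 16.2 CPM at Day 0. The part of other cells in the results was not tested, and in bulk samples fewer cells of a type and less RNA per cell cannot be told apart.

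Of 19043 loci tested, 18.5% were called higher at Day 2 and 4.78% lower, and the median log2 fold change over all of them was 0.22. The calls in both directions differed in level. Of the loci that rose, 1559 of 3517 averaged under 5 CPM at Day 2 and 1171 had at most 3 counts in every Day 0 library, while 19 averaged at least 1000 CPM. Of the 910 loci that fell, 125 averaged under 5 CPM at Day 0, 660 averaged at least 20 CPM and 100 at least 1000 CPM. The plot of mean levels shows the lower calls at high levels and many of the higher calls at low ones. Asking further that the mean of the group with more counts be 5 CPM or higher left 10.3% of all loci higher and 4.12% lower (14.4% in all), and the looser limits of a log2 fold change over 1 with an adjusted p under 0.05 gave 32.2% higher and 19.5% lower (51.8% in all). The ranges of the libraries did not overlap for 3391 of the loci that rose and 891 of those that fell, beside 36.2% and 27.9% of all loci tested whose Day 2 range lay wholly above or below the Day 0 range. The balance of directions depended on scaling: 79.4% of the calls were higher with the trimmed mean, 86.6% with upper-quartile factors and 94.8% with total counts, which raised the median over all loci by 0.27 and 0.80, and values are therefore read beside the median of all loci. Of the genes named in the following paragraphs as fallen, HSP70, NIA2, NIA1, ERD1, SRC2, GSTU19, ABI1, CYP94B3, ACX1, ERF5, ZAT12, IAA16, GH3.6, REIL2, E2Fb, URGT1, RNS1, CA1 and PSB33 were lower by less than the threshold with total counts.

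**Figure D1:**
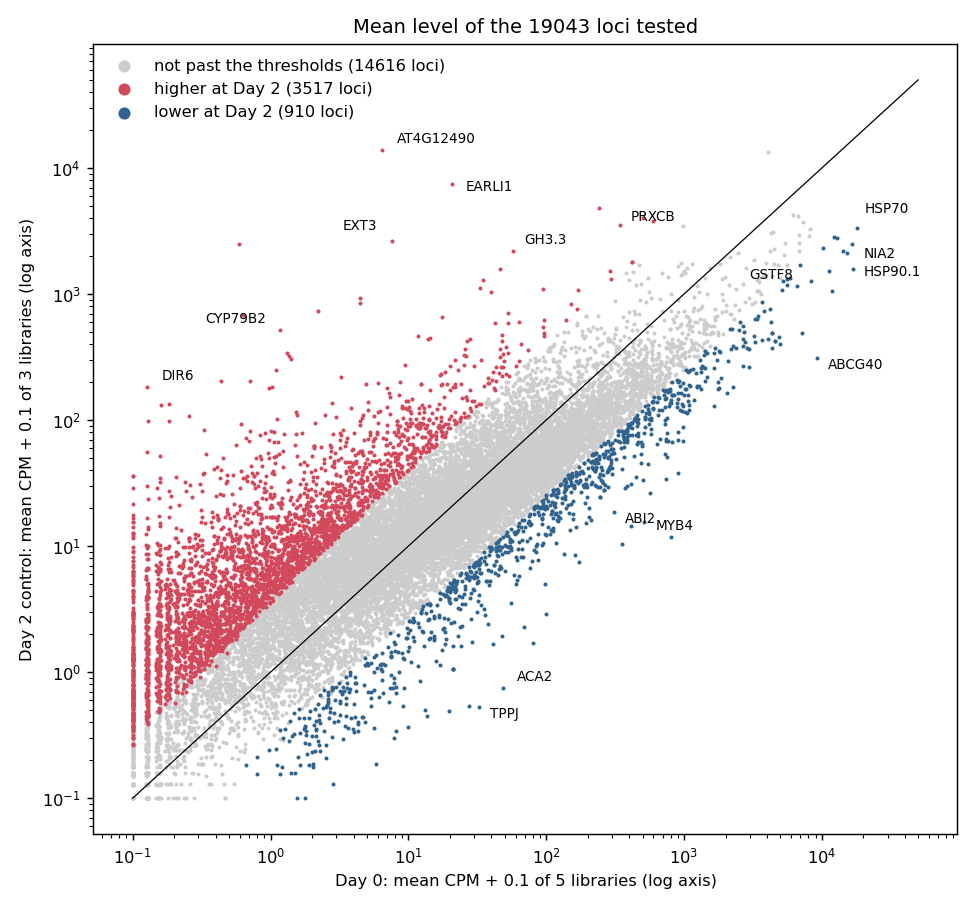
Mean CPM + 0.1 of the 3 Day 2 control libraries (vertical, log axis) against that of the 5 Day 0 libraries (horizontal, log axis) for the 19043 loci tested, with the line of equal level. Red loci were called higher at Day 2 (3517) and blue loci lower (910). Of the blue points 660 lie at 20 CPM or more at Day 0, and 1171 of the red ones had at most 3 counts in every Day 0 library.

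Transcripts of the heat shock response had the lowest median of the gene lists. Of 21 genes of the heat shock and chaperone list, 15 fell (71.4%, beside 4.78% of all loci), none rose and all 21 had a log2 fold change below 0, with a median of -2.95. The list made up 9020, 19100 and 3550 CPM in the Day 2 control libraries, against 107000, 72200, 42700, 62800 and 73400 CPM at Day 0. Day 2 replicate 5 held the most of the Day 2 libraries and Day 0 replicate 4 the most of all 8, and the groups did not overlap.

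HSP70, a cytosolic chaperone and the called gene with the largest share of Day 0 counts, had 2888, 6123 and 1041 CPM at Day 2, against 23969, 17891, 12340.3, 16691 and 19387 CPM at Day 0 (-2.43 ± 0.46 on the log2 scale with its SE, adjusted p = 4.08e-05 in edgeR). HSP90.1, which assists the folding of signalling proteins, had 1284, 2929 and 546 CPM at Day 2, against 26357, 16034, 10138, 14609 and 16379 CPM at Day 0 (-3.40 ± 0.48). The disaggregase gene HSP101 had 876, 2028 and 251 CPM, against 16335, 12575, 6654, 10901 and 12815 CPM (-3.50 ± 0.51). In each of the 3 genes every Day 2 library lay below every Day 0 library, although the Day 2 libraries themselves differed several-fold in the order replicate 5, 4, 6. The repressor of heat shock genes HSFB1 varied less within Day 2, with 366, 528 and 371 CPM, against 7654, 4489, 2876, 3611 and 4314 CPM at Day 0 (-3.44 ± 0.26). Among 28 tested small heat shock proteins, which keep unfolded proteins soluble and 9 of which are also in the list above, 11 fell (39.3%, beside 4.78% of all loci) and 2 rose (7.14%, beside 18.5%). AT2G29500 had 156 to 833 CPM at Day 2, against 2424 to 5759.8 CPM at Day 0, and AT1G52560 had 2.71 to 27.9 CPM, against 89.1 to 769 CPM. Of the pair that rose, AT4G21870 had 3.69, 0.586 and 9.27 CPM at Day 2, against 0.241, 0.801, 0.896, 0.974 and 0.73 CPM at Day 0, so that its ranges overlapped, and without Day 2 replicate 6 it did not pass (1.56). The other, AT5G20970, had 1.22 to 2.64 CPM, against 0 to 0.365 CPM, and shares 1202 bases of its span with AT5G20980 on the other strand.

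The heat shock factors HSFA2 and HSFA7A, transcriptional activators of chaperone genes, are shown with their promoters because each carries the heat shock element upstream of its start. HSFA2 had 84.7, 280.3 and 37.5 CPM at Day 2, against 1229.9, 1197, 527, 889.6 and 1012 CPM at Day 0 (-2.86 ± 0.47), and HSFA7A had 11, 35.2 and 4.11 CPM, against 244, 122, 66.6, 96.5 and 96.2 CPM (-2.95 ± 0.49). Both were chosen after their values were seen. The 250 bases before the annotated gene start, from the RefSeq assembly TAIR10.1, are given 5′ to 3′ on the gene's strand, with matches to the heat shock element in capitals, searched on both strands as GAA, TTC and GAA with 2 free bases between neighbours.
HSFA2 (chr2:11135374-11135623, plus strand): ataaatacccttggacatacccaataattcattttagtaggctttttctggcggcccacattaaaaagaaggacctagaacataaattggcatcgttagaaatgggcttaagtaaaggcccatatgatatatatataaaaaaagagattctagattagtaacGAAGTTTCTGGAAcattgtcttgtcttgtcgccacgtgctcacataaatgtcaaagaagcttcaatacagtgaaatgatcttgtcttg
HSFA7A (chr3:19264891-19265140, plus strand): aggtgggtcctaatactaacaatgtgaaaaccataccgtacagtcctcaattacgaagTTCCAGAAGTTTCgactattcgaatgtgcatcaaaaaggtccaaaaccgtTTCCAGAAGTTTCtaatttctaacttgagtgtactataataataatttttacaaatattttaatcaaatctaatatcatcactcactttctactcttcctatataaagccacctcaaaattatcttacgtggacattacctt
HSFA2 held 1 match, with its first base 88 bases before the start, and HSFA7A held 2, with first bases at 192 and 142. In windows that ran to 50 bases after the start, this motif was found in 5 of the 21 list members (23.8%), in 2.56% of the genes that fell, in 0.426% of those that rose and in 0.575% of all 18597 promoters of tested loci. Of the 5 list members with a match 3 fell, and of the 16 without one 12 fell.

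Detoxification genes were abundant in fresh protoplasts and lower in sum at Day 2, while single members moved both ways. The list of mitochondrial dysfunction and xenobiotic response genes summed to 19600, 26500 and 15600 CPM at Day 2, against 69200 to 76500 CPM at Day 0, and 7 of its 32 members rose and 7 fell (21.9% each, beside 18.5% and 4.78% of all loci). The 37 tested glutathione S-transferases, which conjugate reactive compounds to glutathione, held 8 genes that rose (21.6%) and 7 that fell (18.9%), so that the share of rises was near that of all loci and the share of falls above it, and they summed to 14500, 18500 and 13600 CPM, against 50700 to 59400 CPM. GSTF8 had 1907, 3254 and 1150.3 CPM at Day 2, against 11964, 16602, 15645, 15866 and 16022 CPM at Day 0 (-2.86 ± 0.33), and GSTU19 had 2152 to 3585 CPM, against 10846 to 14716 CPM. GSTF8 shares 516 bases with AT2G47720 on the same strand, whose counts also fell, so that its reads are uncertain. Members of the same family moved the other way: GSTF9 had 399.6, 290.3 and 648 CPM at Day 2, against 9.9, 14.8, 15.7, 16.2 and 15.2 CPM at Day 0 (4.94 ± 0.21), and GSTL1 47.7 to 69 CPM, against 2.8 to 5.55 CPM. The list median was -0.13 with the trimmed mean and 0.65 with total counts, beside 0.22 and 1.02 for all loci.

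Of 54 tested UDP-glycosyltransferases, which attach sugars to hormones and toxins, 12 fell (22.2%, beside 4.78% of all loci) and 3 rose (5.56%, beside 18.5%). They summed to 6240, 7890 and 4640 CPM at Day 2, against 26700 to 32900 CPM at Day 0. Their median was -0.80 with the trimmed mean and 0.00 with total counts, beside 0.22 and 1.02 for all loci. UGT73B2 had 421, 557 and 228 CPM, against 7169, 5189, 3868, 4072 and 4613 CPM (-3.63 ± 0.27), and UGT75B1 291 to 658 CPM, against 3577 to 6083 CPM. The transporter gene ABCG40, chosen after its values were seen, had 310.4, 418 and 199 CPM at Day 2, against 9827, 9116, 9072, 8472 and 9628 CPM at Day 0 (-4.90 ± 0.36, edgeR adjusted p = 1.98e-11). OPR1, an oxophytodienoate reductase, had 957 to 2136 CPM, against 10199 to 12099 CPM. It shares 216 bases with AT1G76690 on the same strand, whose log2 fold change was -1.93. Conversely AT2G04050, a MATE-type efflux transporter, rose to 95.5, 87.1 and 51.3 CPM at Day 2, against 0.725, 1.33, 1.49, 0.487 and 1.75 CPM at Day 0 (6.04 ± 0.28), and OM66, an outer mitochondrial membrane protein and marker of mitochondrial dysfunction, had 184 to 246 CPM, against 32.8 to 51.1 CPM.

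Abscisic acid and osmotic response genes were lower nearly throughout. Of 27 tested, 26 had a log2 fold change below 0, 7 fell (25.9%, beside 4.78% of all loci) and 1 rose (3.70%, beside 18.5%). Their median was -1.60, and -0.83 with total counts, under which 1 of them and 310 of all 19043 loci fell. ABI2 and ABI1, protein phosphatases that restrain abscisic acid signalling and are induced by it, fell: ABI2 had 18.4, 24.8 and 12.4 CPM at Day 2, against 319, 325, 269.5, 329 and 318 CPM at Day 0 (-4.09 ± 0.22), and ABI1 had 75.4, 115 and 54 CPM, against 302, 374, 457, 406 and 377 CPM (-2.24 ± 0.20). Genes for the enzymes that inactivate abscisic acid, the CYP707A hydroxylases, went opposite ways. CYP707A1 had 36.7, 33.1 and 38.9 CPM at Day 2, against 0.241, 0.534, 0.747, 0.487 and 0.146 CPM at Day 0 (6.30 ± 0.33), whereas CYP707A4 had 1.51, 3.08 and 0.262 CPM, against 108, 78.5, 43.3, 72.8 and 97.2 CPM (-5.78 ± 0.43). The senescence regulator NAP also fell, with 11.5 to 27.4 CPM at Day 2 and 115 to 176 CPM at Day 0. ERD1 and SRC2, named for dehydration and cold, were among the genes with the largest Day 0 share. ERD1 had 1316 to 2967 CPM, against 13485 to 14855 CPM, and SRC2 1383 to 3355 CPM, against 8518 to 11439 CPM. Without Day 2 replicate 6 SRC2 did not pass the threshold (-1.89).

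Nitrate reduction genes fell, while a pair of sulphur response genes rose. NIA2, the main nitrate reductase, had 2742, 2875 and 1899 CPM at Day 2, against 13259.5, 17423, 18684, 16592 and 17461 CPM at Day 0 (-2.74 ± 0.24, edgeR adjusted p = 2.70e-10), and NIA1 389.6, 333 and 304 CPM, against 1618, 1713, 1676, 1563 and 1679.9 CPM (-2.27 ± 0.19). By contrast the root-type sulphate transporter SULTR1;2 had 378, 376 and 249 CPM, against 15.7, 35.2, 89.3, 59.2 and 42 CPM (2.78 ± 0.31), and SDI1, a gene induced by sulphur shortage, had 214, 302 and 144 CPM, against 1.69, 2.54, 3.73, 4.26 and 3.5 CPM (6.08 ± 0.34). Of the 15 genes tested in this list, 4 fell (26.7%, beside 4.78% of all loci) and 2 rose (13.3%, beside 18.5%). With total counts none of the 4 kept its call, and 310 of all 19043 loci were called lower.

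Other genes with the largest falls were the trehalose phosphatase gene TPPJ (0.419, 0.44 and 0.437 CPM at Day 2, against 32.1, 34.9, 29.9, 37.9 and 27.7 CPM at Day 0, -6.20 ± 0.41), the carbonic anhydrase gene ACA2 (0.586 to 0.699 against 42 to 60.5 CPM), and MYB4, a repressor of phenylpropanoid genes (15.2, 22 and 8.74 against 613, 705, 309.9, 474 and 479 CPM, -5.09 ± 0.37). AT1G76640, an EF-hand calcium-binding protein, had 0.262 to 0.733 CPM, against 17.3 to 38.6 CPM. AT2G47950, AT3G04300 and AT1G10040 completed the set, with -5.27, -5.10 and -5.19 on the log2 scale. AT2G44130, which encodes a kelch repeat protein, had 11.2, 19.5 and 4.46 CPM at Day 2, against 674, 916, 757, 832 and 838 CPM at Day 0 (-6.14 ± 0.43). Its span overlaps by 1445 bases that of AT2G44140, an ATG4-type autophagy peptidase on the other strand, which had 39.1, 49.3 and 26.1 CPM, against 751, 1024, 854, 934 and 944 CPM (-4.57 ± 0.22). AT2G44140 was the only member of the autophagy list to be called: 0 of 26 rose and 1 fell (3.85%), beside 18.5% and 4.78% of all loci. The lowest-numbered variants summed to 102.3 to 103.3% of the mapped reads in these libraries, so some reads were counted for more than 1 locus, and which of the pair they came from cannot be told apart.

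**Figure D2:**
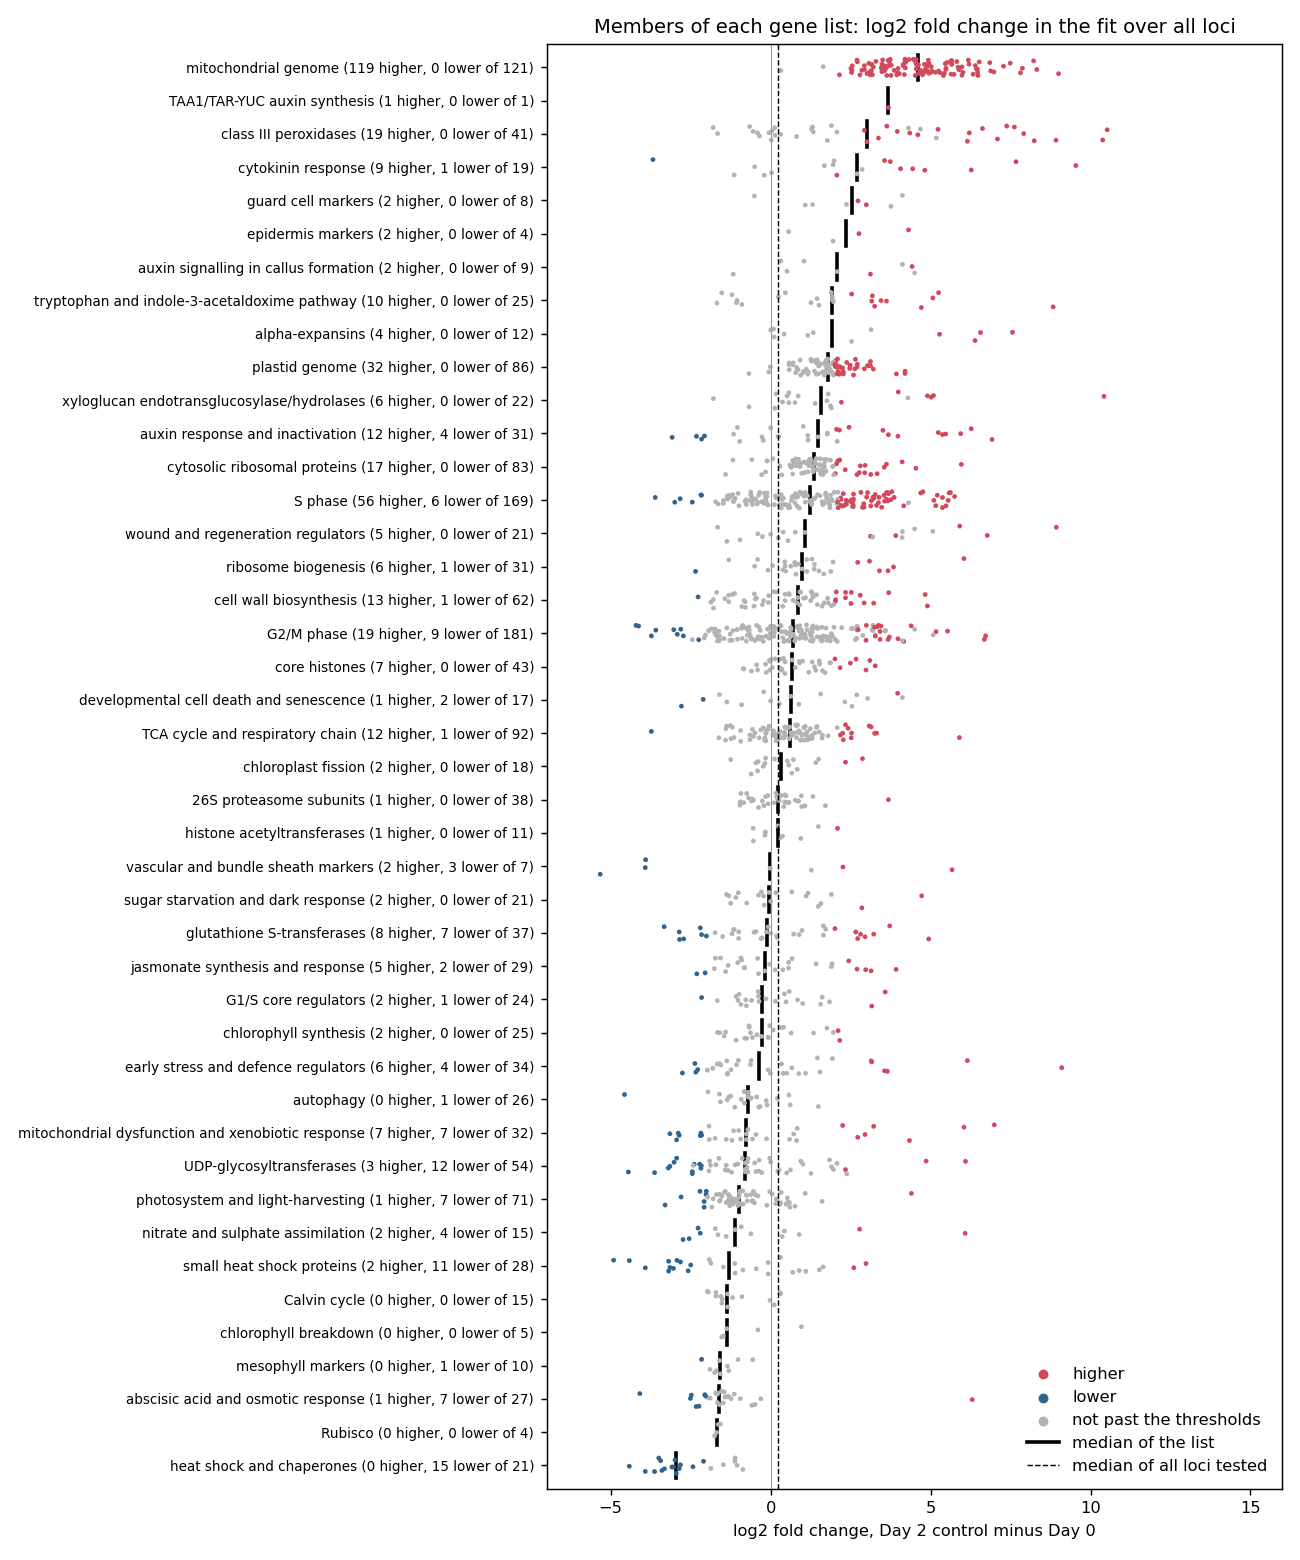
Log2 fold change (Day 2 control minus Day 0, horizontal axis) of every tested member of 43 gene lists, a point per gene, with the median of each list as a black bar and the median of all loci as a dashed line. Red points were called higher and blue points lower, and the number of each stands beside the list's name. Heat shock genes lie lowest and mitochondrial genes highest.

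AT4G12490 and EARLI1, of a tandem group of lipid-transfer-type proteins on chromosome 4, held the largest shares of Day 2 counts among the genes that rose. AT4G12490 had 15090.3, 7002 and 19631 CPM at Day 2, against 0, 0.267, 15.8, 1.95 and 13.7 CPM at Day 0 (11.06 ± 0.75), the neighbouring EARLI1 had 8408, 3952 and 10054 CPM, against 21.7, 14.7, 24.5, 17.9 and 23.6 CPM (8.51 ± 0.32, edgeR adjusted p = 2.61e-16), and AT4G12500 had 2905, 1375 and 3241 CPM, against 0, 0.134, 1.34, 0.122 and 0.876 CPM (12.23 ± 0.40). AZI1, the next gene of the group and chosen after its values were seen, had 1218, 629.9 and 1413 CPM, against 112, 75, 100.3, 83.2 and 104 CPM (3.52 ± 0.30). All 4 were lowest at Day 2 in replicate 5, and the Day 0 libraries of AT4G12490 ranged from 0 to 15.8 CPM. Their sequences are alike, and how reads that match several of them were divided is not known here, so the values of single members are uncertain.

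Extensins, wall glycoproteins that peroxidases cross-link, were also among the risen genes with the largest Day 2 shares. EXT3, the extensin needed for a new wall across the dividing cell, had 2815, 1368 and 3794 CPM at Day 2, against 7.25, 9.61, 9.41, 4.14 and 7.16 CPM at Day 0 (8.47 ± 0.33), and EXT4 had 5678, 2548 and 6183 CPM, against 459.8, 178, 163, 228 and 186 CPM (4.31 ± 0.31). Of 41 tested class III peroxidases, which make and use hydrogen peroxide in the wall, 19 rose (46.3%, beside 18.5% of all loci) and none fell, with a median of 3.01. They summed to 12500, 6660 and 14300 CPM at Day 2, against 1100 to 1610 CPM at Day 0. PRXCB had 3684, 2404 and 4492 CPM, against 467, 251, 436, 236 and 313 CPM, AT5G64120 had 2018 to 5606 CPM, against 437 to 629.9 CPM, and PRX52 had 1815, 836 and 1237 CPM, against 36.7, 23, 41.4, 36.4 and 35.2 CPM (5.23 ± 0.30). Prx37 was at or under the floor in every Day 0 library and reached 157, 39.7 and 209 CPM at Day 2, at least 186-fold higher.

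Some genes that loosen the primary wall also rose, at lower levels. Of 12 tested alpha-expansins, proteins that let wall polymers slip, 4 rose (33.3%, beside 18.5% of all loci) and none fell (median 1.93). EXPA1 had 206, 158 and 183 CPM at Day 2, against 0.483, 0.134, 2.09, 1.22 and 0.73 CPM at Day 0 (7.56 ± 0.28), and EXPA4 had 30.3, 25.2 and 49 CPM, against 0, 0, 0.896, 0.609 and 0.146 CPM (6.56 ± 0.43). Of 22 xyloglucan endotransglucosylase/hydrolases, which cut and rejoin hemicellulose, 6 rose (27.3%) and none fell (median 1.57). XTH10 was at 0 in all Day 0 libraries and had 20.4, 14.9 and 14.2 CPM at Day 2, at least 22.8-fold higher, while XTH19 had 16.9 to 47.6 CPM, against 4.67 to 11.4 CPM, and did not pass without Day 2 replicate 4 (1.92). Of the 62 tested genes of the cell wall biosynthesis list, 13 rose (21.0%, near the 18.5% of all loci) and 1 fell (1.61%, beside 4.78%), with a median of 0.84. Among its cellulose synthases CESA2 rose (64.3, 32.1 and 85.7 against 5.8, 11.8, 19.4, 17.5 and 19 CPM, 2.03 ± 0.25, and 1.66 without Day 2 replicate 6, 1.96 without Day 2 replicate 4, 1.85 without Day 0 replicate 4 and 1.95 without Day 0 replicate 5, none of which passed), while the log2 fold changes of CESA1, CESA3 and CESA6, subunits of the primary wall complex, were -0.44, -0.52 and -0.90 and passed no threshold. These 3 were chosen after their values were seen. URGT1, a nucleotide sugar transporter, was the member of that list that fell, with 40.7 to 67.7 CPM at Day 2 and 152 to 297 CPM at Day 0.

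Several of the largest gains were in genes at or under the floor at Day 0. DIR6, a dirigent protein that directs lignan coupling, had 221, 106 and 220.5 CPM at Day 2 and at most 3 counts in any Day 0 library, at least 252-fold higher. The laccase gene LAC7 had 114, 49.8 and 129 CPM and was at least 135-fold higher, and the beta-glucosidase gene BGLU28 had 134, 163 and 102 CPM and was at least 183-fold higher. The dehydrogenase-like gene AT5G50130, the TRAF-like gene AT5G26280, the VQ motif gene AT2G33780 and the acyltransferase gene AT5G47980 were at 0 in all Day 0 libraries and were at least 40.1-, 49.98-, 49.5- and 29.7-fold higher. The salicylic acid marker PR1 had 257, 89.1 and 264 CPM at Day 2, against 0, 0.935, 0.597, 0 and 0.146 CPM at Day 0 (9.10 ± 0.48). In the same list of 34 early stress and defence regulators, ZAT12 and ERF5, early transcription factors of the wound and oxidative response, fell: ZAT12 had 179 to 506 CPM, against 1230.4 to 2077 CPM, and ERF5 had 20.02 to 71.2 CPM, against 139 to 285 CPM, and did not pass without Day 2 replicate 6 (-1.97). In all 6 members of that list rose (17.6%, near the 18.5% of all loci) and 4 fell (11.8%, beside 4.78%). With total counts 9 of the 34 rose and none fell, beside 5649 higher and 310 lower of all 19043 loci.

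Of 29 tested jasmonate genes 5 rose (17.2%) and 2 fell (6.90%), shares near the 18.5% and 4.78% of all loci. Their median was -0.18, and 0.60 with total counts, beside 0.22 and 1.02 for all loci. CYP94C1 and CYP94B3, which oxidise and so inactivate jasmonoyl-isoleucine, moved apart: CYP94C1 had 171, 138 and 273 CPM at Day 2, against 5.8 to 35.8 CPM at Day 0 (3.14 ± 0.30), and CYP94B3 had 212, 170.3 and 209 CPM, against 705, 976, 1182, 1092 and 935 CPM (-2.31 ± 0.16). Of the biosynthetic genes, OPCL1 rose (238 to 275 against 39.4 to 59.9 CPM) and ACX1 fell (818 to 1810.2 against 4259 to 5610.5 CPM, not past the threshold at -1.84 without Day 2 replicate 6 or at -2.00 in the fit to the 8 libraries alone).

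**Figure D3:**
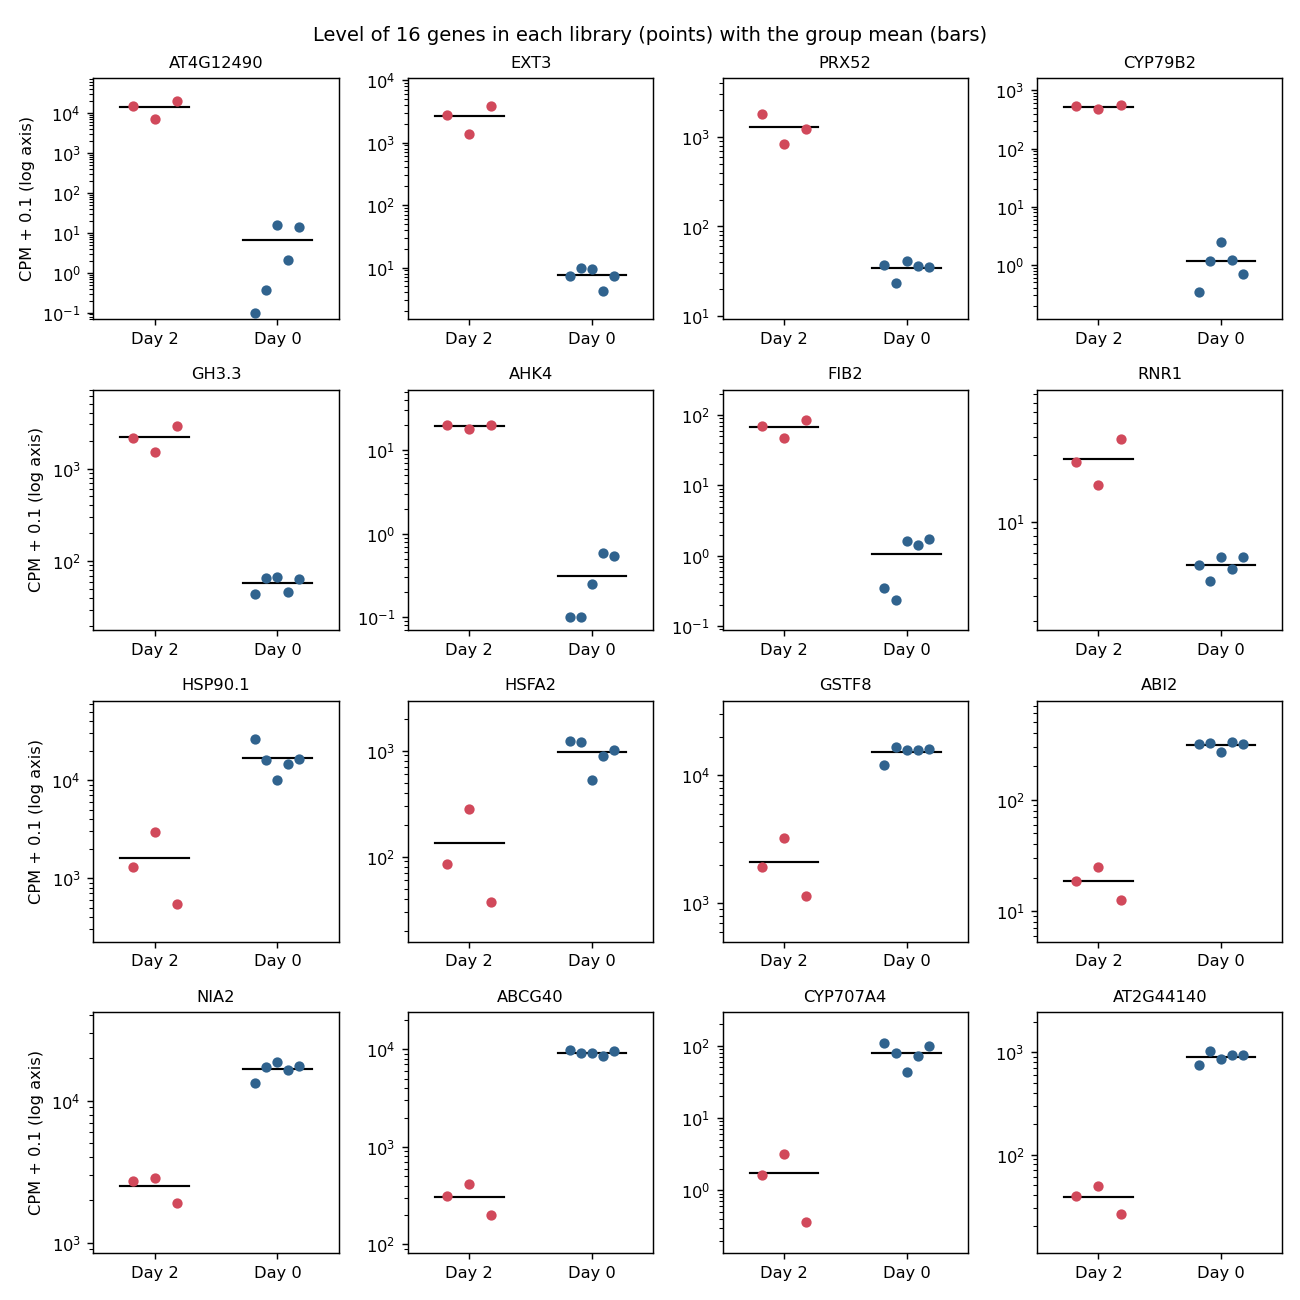
CPM + 0.1 (log axis) of 16 genes in each Day 2 control library (red, left) and each Day 0 library (blue, right), with bars at the group means. In all 16 genes the groups do not overlap, and AT4G12490 spread from 0 to 15.8 CPM among Day 0 libraries.

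Auxin and cytokinin, both supplied in the medium, are hormones whose response genes mark their action. Of 31 tested auxin response and inactivation genes 12 rose (38.7%, beside 18.5% of all loci) and 4 fell (12.9%, beside 4.78%), with a median of 1.48. GH3.3, which conjugates auxin to amino acids and is induced by auxin, had 2158, 1497 and 2875 CPM at Day 2, against 44.2, 65.6, 67.3, 46.2 and 64.7 CPM at Day 0 (5.24 ± 0.21, edgeR adjusted p = 1.12e-15). IAA1, an early auxin-induced repressor chosen after its values were seen, had 43.6, 38.9 and 40.8 CPM, against 0, 0.401, 0.149, 0.609 and 0.292 CPM (6.92 ± 0.31), and IAA5, chosen likewise, had 11.8, 6.45 and 10.9 CPM and was at least 13.4-fold higher. Other members fell: IAA16 had 338, 554 and 234 CPM at Day 2, against 1620.2, 1774, 1584, 1682 and 1728 CPM at Day 0 (-2.16 ± 0.19), and GH3.6 had 10.4 to 14.1 CPM, against 42.3 to 58.7 CPM. Without Day 2 replicate 6 neither passed, with -1.94 for IAA16 and -2.00 for GH3.6.

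Among auxin synthesis genes, part of the tryptophan-derived aldoxime route rose, while most TAA1/TAR and YUC genes were below the limit of testing. Of 25 tested members of the tryptophan and indole-3-acetaldoxime list, 10 rose (40.0%, beside 18.5% of all loci) and none fell, with a median of 1.93. CYP79B2, which turns tryptophan into indole-3-acetaldoxime, had 532, 470.4 and 554 CPM at Day 2, against 0.241, 1.07, 2.39, 1.1 and 0.584 CPM at Day 0 (8.83 ± 0.28, edgeR adjusted p = 4.06e-17). Its paralogue CYP79B3, chosen after its values were seen, had 14.1, 14.7 and 21.5 CPM, against 1.21, 1.87, 0.747, 1.34 and 2.34 CPM (3.45 ± 0.28). The nitrilase gene NIT2 had 1216, 722 and 1432 CPM, against 11.6, 52.6, 43.6, 29.2 and 28.9 CPM (5.07 ± 0.29), and CYP71A12, an enzyme that takes the aldoxime towards defence compounds, had 769, 658 and 533 CPM, against 29.9, 12, 22.1, 11.8 and 11.7 CPM (5.25 ± 0.28). Despite these rises the list as a whole summed to 9430 to 11500 CPM at Day 2 and 10400 to 12600 CPM at Day 0, and those ranges overlapped.

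Of the 14 TAA1/TAR and YUC genes, which form the main route from tryptophan to auxin, TAR2 alone had enough counts to be tested, and it had 3.35, 1.47 and 2.27 CPM at Day 2, against 0, 0, 0.299, 0.487 and 0 CPM at Day 0 (3.68 ± 0.64). YUC8 had 0.335, 0 and 0.0874 CPM at Day 2, against 0, 1.07, 1.49, 1.34 and 1.17 CPM at Day 0. TAR1, YUC1, YUC3, YUC4, YUC5 and YUC9 had 0 counts in all 8 libraries, and TAA1 had 0 to 0.0874 CPM at Day 2, against 0 to 0.122 CPM at Day 0. A count of 0 allows a level of up to 0.251 to 0.724 CPM in these libraries, which is that of 3 counts.

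Cytokinin genes that rose came from the perception, feedback and breakdown classes: 9 of 19 rose (47.4%, beside 18.5% of all loci) and 1 fell (5.26%, beside 4.78%), with a median of 2.70. The receptor gene AHK4 had 19.9, 18 and 20.1 CPM at Day 2, against 0, 0, 0.149, 0.487 and 0.438 CPM at Day 0 (6.27 ± 0.32), and the feedback repressors ARR7 and ARR6 had 51.3, 39.3 and 45.6 CPM, against 4.59, 4.14, 2.99, 2.31 and 5.55 CPM (3.56 ± 0.19), and 11.3 to 15.4 CPM, against 0.487 to 0.935 CPM. Cytokinin oxidases, which degrade the hormone, differed by member. CKX2 was at 0 in all Day 0 libraries and had 10.5, 8.94 and 7.52 CPM at Day 2, at least 12.4-fold higher, and CKX4 had 86.3, 76.2 and 76.8 CPM, against 2.66, 5.07, 6.42, 6.21 and 8.62 CPM (3.74 ± 0.32). CKX7, a cytosolic form, fell, with 1.17, 1.61 and 1.4 CPM at Day 2, against 8.94, 20.8, 19.6, 20.3 and 18.1 CPM at Day 0 (-3.68 ± 0.36). AHK4, ARR6 and CKX2 were chosen after their values were seen.

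Genes of the cytosolic ribosome were mostly higher, by less than the threshold in most cases. Of 83 tested cytosolic ribosomal protein genes, 76 had a log2 fold change above 0 and 17 passed the threshold (20.5%, beside 18.5% of all loci), none fell, and the median was 1.35 beside 0.22 for all loci. For 69 of the 83 every Day 2 library lay above every Day 0 library, beside 36.2% of all loci. Their sum was 7160, 5240 and 9700 CPM at Day 2, against 2970, 3210, 3280, 3350 and 3170 CPM at Day 0, lowest at Day 2 in replicate 5 and highest in replicate 6. AT4G16720, for ribosomal protein L15e, had 186, 133 and 267 CPM, against 29, 39, 40.6, 44 and 40.6 CPM (2.33 ± 0.15), and AT5G16130, for S7e, had 84 to 169 CPM, against 15.5 to 23.1 CPM. With total counts 52 of the 83 were called higher, beside 5649 of all 19043 loci under that scaling.

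Of 31 ribosome biogenesis genes 6 rose (19.4%, beside 18.5% of all loci) and 1 fell (3.23%), with a median of 0.98, below that of the ribosomal proteins. For 24 of the 31 every Day 2 library lay above every Day 0 library, beside 36.2% of all loci. The members that rose include factors that modify ribosomal RNA. FIB2, a fibrillarin that methylates ribosomal RNA, had 70.1, 46.9 and 85.3 CPM at Day 2, against 0.241, 0.134, 1.49, 1.34 and 1.61 CPM at Day 0 (6.04 ± 0.28). CBF5, the pseudouridine synthase, had 130.1, 87.7 and 151 CPM, against 9.9, 10.9, 8.66, 7.79 and 11.1 CPM (3.67 ± 0.15), and NOP56, a core protein of the same class of particles as fibrillarin, had 178, 159.8 and 208 CPM, against 31.4, 20.03, 19.1, 15.8 and 21.6 CPM (3.09 ± 0.16). FIB2, CBF5 and NOP56 were chosen after their values were seen. REIL2, a late factor of the large subunit, fell, with 149, 226 and 104 CPM at Day 2, against 908, 804, 710.5, 789 and 849.8 CPM at Day 0 (-2.35 ± 0.19).

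The NOP56 promoter is shown because it carries both elements known from promoters of ribosomal genes, the telo box (AAACCCTA) and site II (TGGGCC or TGGGCT). They are in capitals and were searched on both strands.
NOP56 (chr1:20986953-20987202, minus strand): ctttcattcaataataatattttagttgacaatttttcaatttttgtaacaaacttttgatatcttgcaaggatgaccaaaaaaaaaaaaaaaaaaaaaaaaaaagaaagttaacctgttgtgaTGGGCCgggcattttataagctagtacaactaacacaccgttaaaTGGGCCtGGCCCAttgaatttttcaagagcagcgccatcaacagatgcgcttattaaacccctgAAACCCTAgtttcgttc
The telo box began 17 bases before the annotated start, and site II matches began at 126, 81 and 74. Within 250 bases before and 50 after the start, a telo box was found in 51.8% of cytosolic ribosomal protein genes and 48.4% of ribosome biogenesis genes, in 7.74% of genes that rose, 1.89% of genes that fell and 5.71% of all promoters. Site II was found in 80.7% and 77.4% of these lists, and in 26.3% of all promoters. All 6 ribosome biogenesis genes that rose, and the 1 that fell, were among the 15 with a telo box, against none of the 16 without one. In the ribosomal protein genes, 9 of 43 with and 8 of 40 without a telo box rose, with medians of 1.38 and 1.34. Split by site II, 4 of 24 ribosome biogenesis genes with it and 2 of 7 without it rose (medians 0.96 and 0.98). In the ribosomal protein genes 15 of 67 with site II and 2 of 16 without it rose (1.38 and 1.22).

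A larger share of S phase genes and a smaller share of G2/M genes than of all loci was called higher, while the summed levels of both lists were lower at Day 2. In the list of 169 tested S phase genes, 56 rose (33.1%) and 6 fell, and in the list of 181 G2/M genes, 19 rose (10.5%) and 9 fell, beside 18.5% and 4.78% of all loci. Both lists were taken from the study, and a share of 10.5% is below that of all loci. Of 24 tested G1/S regulators 2 rose (8.33%) and 1 fell (4.17%), both below the shares of all loci. The S phase genes summed to 2870, 3000 and 2480 CPM at Day 2, against 3840 to 5000 CPM at Day 0, the G2/M genes to 373, 429 and 350 CPM, against 560 to 630 CPM, and the G1/S regulators to 278, 310 and 272 CPM, against 410 to 520 CPM. None of these sums overlapped between the days. The S phase members that rose included genes of other functions, such as the metal transporter NRAMP3 (313 to 446 CPM at Day 2, 41.3 to 111 CPM at Day 0).

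All 6 subunits of the MCM helicase, which opens DNA at replication origins, rose. They were chosen after their values were seen. MCM2 had 4.02, 4.25 and 7.08 CPM at Day 2, against 0.241, 0.401, 0, 0.244 and 0 CPM at Day 0, at least 7.07-fold higher, and MCM3, MCM6 and the MCM7 gene PRL were also at or under 3 counts in every Day 0 library and at least 4.47-, 3.43- and 5.73-fold higher. MCM4 had 4.19, 3.23 and 5.94 CPM, against 0.483, 0.401, 0.597, 0.365 and 0 CPM (3.62 ± 0.39), and MCM5 5.45, 4.11 and 10.3 CPM, against 1.21, 0.935, 0.597, 0.731 and 0.438 CPM (3.15 ± 0.34). In all 6 the highest Day 2 library was replicate 6 and no ranges overlapped, and the highest Day 2 value was 10.3 CPM, in MCM5. Of other replication genes chosen after their values were seen, RNR1, the large subunit of ribonucleotide reductase, had 26.4, 18.2 and 38.4 CPM at Day 2, against 4.83, 3.74, 5.52, 4.51 and 5.55 CPM at Day 0 (2.53 ± 0.18), the replisome factor ETG1 was at least 4.7-fold higher, and the maintenance DNA methyltransferase MET1 had 13.5, 8.5 and 21.5 CPM, against 0.725, 1.2, 1.34, 1.22 and 0.73 CPM (3.76 ± 0.30). ETG1 shares 49 bases with AT2G40540 on the same strand, whose log2 fold change was 3.48.

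Other members of the same machinery, also chosen after their values were seen, did not pass the threshold or fell. TSO2, the small subunit of ribonucleotide reductase, had 7.79, 5.72 and 15.6 CPM at Day 2, against 4.35, 6.41, 6.87, 4.99 and 5.84 CPM at Day 0 (0.78 ± 0.22), and the sliding clamp gene PCNA1 had 1.76, 1.91 and 4.2 CPM, against 0.966, 3.74, 3.13, 2.68 and 3.5 CPM (-0.12 ± 0.33). Their ranges overlapped. RPA2, a single-strand binding protein gene, fell, with 3.85, 4.84 and 6.12 CPM at Day 2, against 66.7, 41.7, 69, 57.1 and 68.6 CPM at Day 0 (-3.61 ± 0.22), but it shares 597 bases with AT2G24480 on the other strand and 173 with REIL2 on the same strand, both of which also fell. The transcription factor gene E2Fb fell, with 23.1, 45.7 and 14.4 CPM, against 144, 132, 106, 118 and 112 CPM (-2.16 ± 0.23, and -1.87 and not called without Day 2 replicate 6). Of the G1/S regulators KRP2, a cyclin-dependent kinase inhibitor, rose (at least 3.05-fold), and the G1 cyclin gene CYCD4;1 also passed the threshold, with 0.293 to 0.419 CPM at Day 2, against 0 to 0.149 CPM at Day 0, but not without Day 2 replicate 4 (2.98).

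The MCM promoters are shown because E2F factors, which switch on replication genes, bind the element searched here. MCM2 to MCM6 carry a match to TTTCCCGC or TTTGGCGC, on either strand and in capitals, within 250 bases before the annotated start. The MCM7 gene PRL held 0 matches in the same window, also with the 50 bases after the start, and its promoter is not printed. Only these spellings were searched, so other forms of the element would be neither marked nor counted.
MCM2 (chr1:16969964-16970213, plus strand): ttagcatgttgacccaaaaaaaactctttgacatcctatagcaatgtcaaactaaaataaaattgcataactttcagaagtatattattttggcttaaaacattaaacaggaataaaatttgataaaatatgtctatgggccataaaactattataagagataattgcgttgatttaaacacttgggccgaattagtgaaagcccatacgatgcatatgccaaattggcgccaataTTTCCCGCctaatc
MCM3 (chr5:18773707-18773956, minus strand): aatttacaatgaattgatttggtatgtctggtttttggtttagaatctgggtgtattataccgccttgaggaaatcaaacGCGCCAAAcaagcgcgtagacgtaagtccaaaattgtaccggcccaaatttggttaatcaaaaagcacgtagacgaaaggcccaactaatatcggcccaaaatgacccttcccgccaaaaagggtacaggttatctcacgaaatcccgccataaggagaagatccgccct
MCM4 (chr2:7130730-7130979, minus strand): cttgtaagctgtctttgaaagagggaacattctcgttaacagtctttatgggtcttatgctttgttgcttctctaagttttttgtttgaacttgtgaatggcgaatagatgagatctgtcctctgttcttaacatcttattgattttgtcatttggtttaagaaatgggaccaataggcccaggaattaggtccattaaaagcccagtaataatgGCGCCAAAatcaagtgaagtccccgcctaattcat
MCM5 (chr2:3527501-3527750, minus strand): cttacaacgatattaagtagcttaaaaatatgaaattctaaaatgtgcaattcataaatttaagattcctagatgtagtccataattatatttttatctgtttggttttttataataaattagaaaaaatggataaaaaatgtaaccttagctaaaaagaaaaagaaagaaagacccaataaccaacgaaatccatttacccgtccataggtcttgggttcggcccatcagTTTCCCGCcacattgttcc
MCM6 (chr5:18010668-18010917, minus strand): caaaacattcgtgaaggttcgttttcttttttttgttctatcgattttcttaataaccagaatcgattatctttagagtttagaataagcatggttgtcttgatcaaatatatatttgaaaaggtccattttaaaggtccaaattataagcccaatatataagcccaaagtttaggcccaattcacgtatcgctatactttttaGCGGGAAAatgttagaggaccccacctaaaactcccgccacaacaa
The first bases of these matches lie 14, 170, 35, 19 and 46 bases before the start in MCM2, MCM3, MCM4, MCM5 and MCM6. In windows that ran to 50 bases after the start, the element was found in 53 of the 169 S phase genes (31.4%), 1 of the 181 G2/M genes (0.552%), 1.77% of the genes that rose, 1.00% of those that fell and 1.34% of all promoters. Of the 53 S phase genes with it 27 rose and none fell, with a median of 2.53, and of the 116 without it 29 rose and 6 fell, with a median of 0.66. Over all loci, 58 of the 250 with the element rose (23.2%), and 17.6% of the 18347 without it. The 250 include the 53 S phase genes and the 58 include their 27 rises, so this is not a separate result. These are descriptions of letters in a window, not of binding.

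Core histone genes, whose proteins package newly made DNA, had a share of rises below that of all loci: 7 of 43 rose (16.3%, beside 18.5%) and none fell, with a median of 0.67. The variant gene GAMMA-H2AX had 24.1, 10.4 and 34.1 CPM at Day 2, against 1.69, 2.8, 2.09, 3.53 and 4.09 CPM at Day 0 (2.98 ± 0.27). Among 11 tested histone acetyltransferases, which open chromatin and which the study blocked with inhibitors in other cultures, HAG2 alone passed the threshold (9.09%, beside 18.5% of all loci). HAG2 had 19.4, 19.5 and 18.7 CPM, against 3.86, 3.47, 5.97, 4.75 and 4.38 CPM (2.09 ± 0.13, and 2.00 and not called without Day 0 replicate 5). HAG1/GCN5 had 15.9, 12.9 and 17.1 CPM, against 4.35, 5.74, 5.97, 5.48 and 5.55 CPM, non-overlapping but short of the threshold (1.49 ± 0.14).

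Regulators of wounding and regeneration mostly remained scarce. Of 21 tested, 5 rose (23.8%, beside 18.5% of all loci) and none fell. PLT7, a PLETHORA factor with a role in shoot regeneration, was at 0 in all Day 0 libraries and had 6.62, 4.54 and 6.29 CPM at Day 2, at least 8.03-fold higher, and the AP2/ERF gene AT5G61890 had 32, 15.4 and 29.5 CPM, against 0.483, 0.267, 0.747, 0.487 and 0.146 CPM (5.91 ± 0.48). AT1G36060, LBD16 and PLT3 also passed the threshold, with Day 2 levels of 0.838 to 2.1, 1.03 to 2.35 and 0.147 to 1.22 CPM, PLT3 not without Day 2 replicate 6 (2.69). PLT3 shares 454 bases with AT5G10520 on the other strand, whose log2 fold change was 2.6, so that its few reads are uncertain. WIND1, a wound-induced dedifferentiation factor, had 288, 353 and 307 CPM at Day 2, against 346, 457, 398, 363 and 332 CPM at Day 0, with overlapping ranges (-0.26 ± 0.15), and the ethylene response factor RAP2.6 had 114 to 172 CPM, against 395 to 546 CPM, without overlap but short of the threshold. ESR1, a shoot regeneration factor, had 0.251, 0 and 0.787 CPM, against 0 in all Day 0 libraries, and was called only under other settings (5.46 without Day 2 replicate 5).

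**Figure D4:**
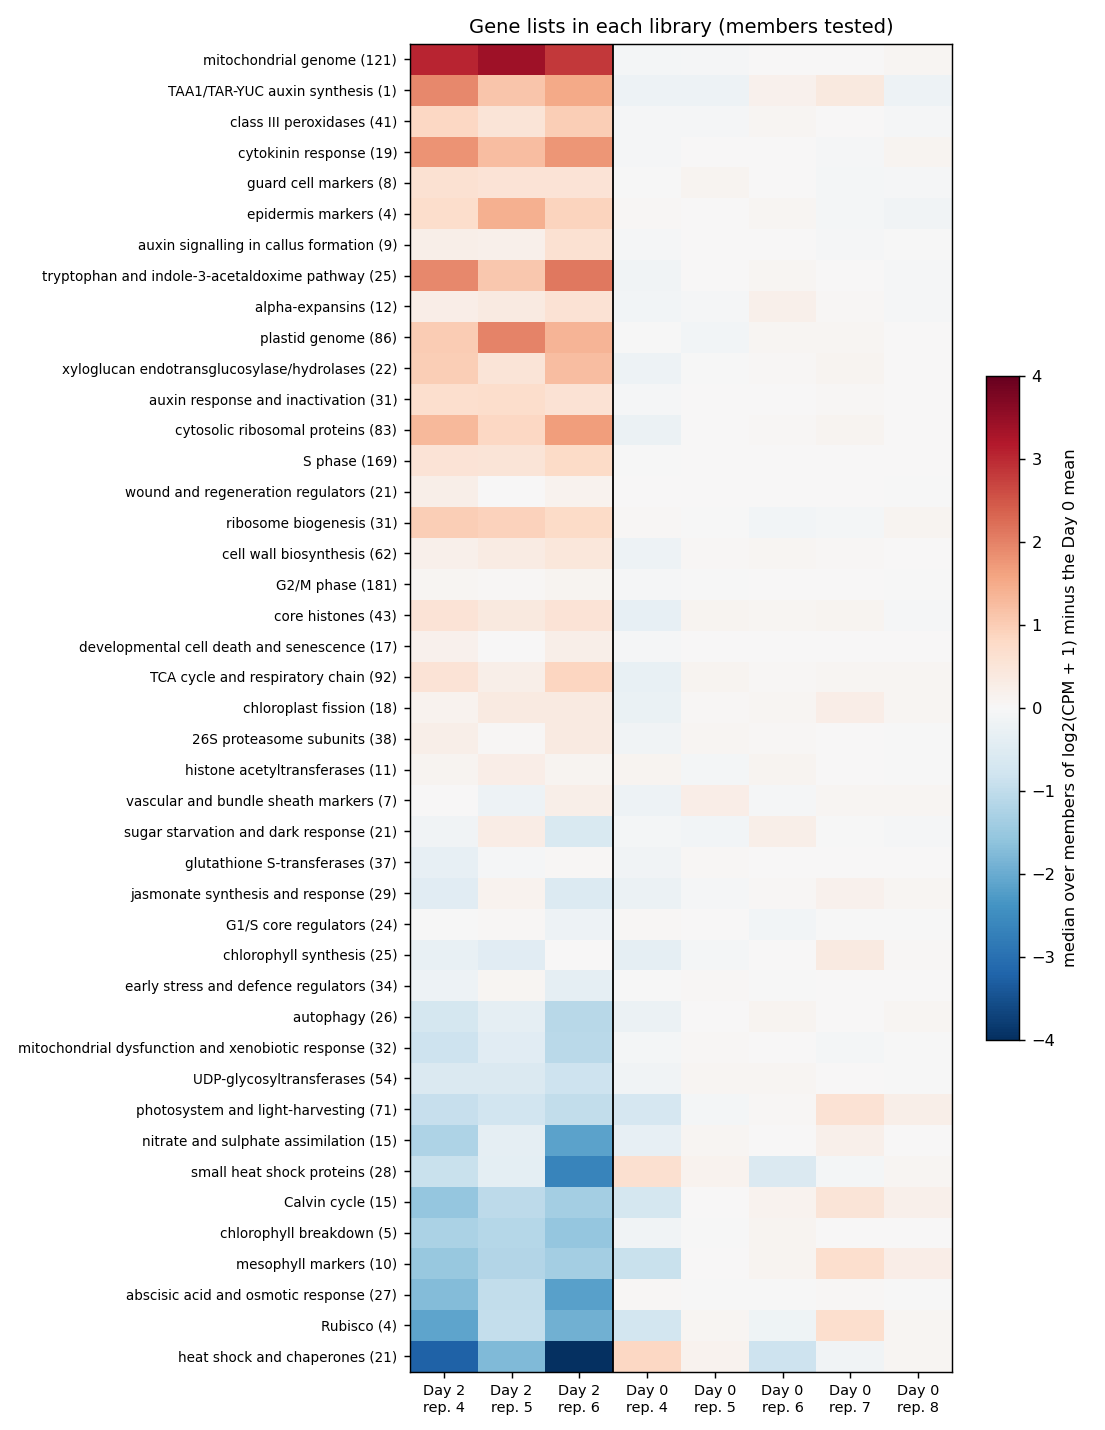
Median over the members of each gene list of log2(CPM + 1) minus the member's Day 0 mean, in each Day 2 control library (left 3 columns) and each Day 0 library (right 5 columns), with lists ordered by their median log2 fold change and the number of members tested in parentheses. Day 2 replicate 5 is the palest Day 2 column in the heat shock row, and Day 0 replicate 4 is highest of the Day 0 columns in that row and lowest of them in the photosystem, Rubisco and Calvin cycle rows.

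Nuclear genes of photosynthesis were lower, but few passed the threshold. Of 71 photosystem and light-harvesting genes, 55 had a log2 fold change below 0, 7 fell (9.86%, beside 4.78% of all loci) and 1 rose (1.41%, beside 18.5%). None of the 15 Calvin cycle genes (median -1.35), the 4 Rubisco small subunit genes (-1.67) or the 5 chlorophyll breakdown genes (-1.37) was called. PSB33, a photosystem II repair protein, had 41.1, 85.6 and 34.5 CPM at Day 2, against 176, 237, 206, 245 and 221 CPM at Day 0 (-2.02 ± 0.23), and the carbonic anhydrase gene CA1 had 106, 243 and 98.3 CPM, against 452, 659.7, 586, 924 and 694 CPM (-2.16 ± 0.30). Neither passed without Day 2 replicate 6 (-1.81 for PSB33, -1.96 for CA1) or without Day 2 replicate 4 (-1.89 and -1.99), nor did PSB33 without Day 0 replicate 5 or 7 (-1.99 and -1.98) or in the fit to the 8 libraries alone (-1.97). The photosystem list summed to 6310, 6710 and 6430 CPM at Day 2, against 7560, 11400, 13700, 20800 and 15100 CPM at Day 0, so that Day 0 varied more than Day 2. Day 0 replicate 4, lowest in this sum, was the library highest in heat shock transcripts, and their part in the results was not tested. Of 25 chlorophyll synthesis genes 2 rose (8.0%, beside 18.5% of all loci) and none fell. PORB, which reduces protochlorophyllide in light, had 41.6, 17.3 and 56.6 CPM, against 3.38, 6.54, 10.9, 14 and 7.3 CPM (2.16 ± 0.30), and did not pass without Day 2 replicate 6 (1.75) or Day 0 replicate 4 (2.00).

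Transcripts of both organelle genomes took a larger share of the counts at Day 2. Mitochondrial loci held 0.593%, 0.722% and 0.554% of all counts in Day 2 libraries, against 0.0345% to 0.0443% in Day 0 libraries, and 119 of 121 rose (98.3%, beside 18.5% of all loci), with a median log2 fold change of 4.60. Plastid loci held 2.6%, 6.31% and 2.77% at Day 2, against 0.574% to 0.791% at Day 0, and 32 of 86 rose (37.2%), with a median of 1.80. Day 2 replicate 5 was the highest in both. The photosystem II gene psbA had 5334, 4363 and 1609 CPM at Day 2, against 1316, 159, 1347, 89.3 and 90.2 CPM at Day 0 (2.65 ± 0.75), with Day 0 replicates 4 and 6 well above the other Day 0 libraries, and psbD had 762, 2496 and 686 CPM, against 159, 285, 378, 299 and 362 CPM (2.15 ± 0.36). The call of psbA was lost without Day 2 replicate 4 (2.30) and in the fit to the 8 libraries alone (2.66), and that of psbD without Day 2 replicate 5 (1.29) or Day 0 replicate 4 (1.99). The library kit selects polyadenylated RNA, which most organelle transcripts are not, so these values are shares of such libraries and not levels of organelle RNA.

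The same rise appeared at nuclear loci that copy the mitochondrial genome. Of 64 tested nuclear loci in which at least 80% of 31-base words also occur in the mitochondrial genome of the RefSeq assembly, 62 rose, with a median of 4.62. The other 18772 nuclear loci had a median of 0.19, with 3304 higher and 910 lower. In the list of respiratory genes 12 of 92 rose (13.0%, beside 18.5% of all loci) and 1 fell (1.09%, beside 4.78%). AT2G07671 and AT2G07698, which belong to that list, share 100% and 98.8% of their words with the mitochondrial genome. AT2G07671 had 340.3, 600.5 and 319.6 CPM at Day 2, against 43.7, 36.7, 50.02, 53.1 and 54.3 CPM at Day 0 (3.14 ± 0.23), and whether these counts came from nucleus or mitochondrion cannot be told apart. AT5G25450, annotated as a subunit of a ubiquinol oxidase, was the member of that list that fell, to 24.3, 46 and 18.5 CPM, against 429, 402, 267, 389 and 454 CPM at Day 0 (-3.73 ± 0.26).

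In several lists a smaller share was called higher than the 18.5% of all loci. Of 38 tested proteasome subunits 1 rose (2.63%), with a median of 0.23, and 2 of 18 chloroplast fission genes rose (11.1%, median 0.32), among them the division ring gene FTSZ1-1 (16.3 to 28.9 CPM at Day 2, 2.66 to 5.72 CPM at Day 0). In sugar starvation and dark response genes 2 of 21 rose (9.52%, median -0.05), namely the dark-induced beta-glucosidase BGLU30, which had 1156, 1386 and 599.8 CPM at Day 2, against 36.5, 27.4, 74, 29.96 and 31.2 CPM at Day 0 (4.72 ± 0.36), and the branched-chain aminotransferase BCAT2 (44.1 to 84.4 against 6.68 to 15.2 CPM). Of 17 genes of developmental cell death and senescence 1 rose (5.88%) and 2 fell (11.8%), with a median of 0.63. In the fit to the 8 libraries alone 10 members were tested, with a median of -0.52, so the 2 medians cover different genes. SAG13 had 218, 179 and 181 CPM, against 12.1, 14.7, 12.4, 8.28 and 14.2 CPM (3.97 ± 0.24), and the ribonuclease gene RNS1 85.5 to 105 CPM, against 297 to 537 CPM, without its call once Day 0 replicate 5 was left out (-2.00).

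Set beside later control days, the changes of the first 2 days fell into several patterns in the genes plotted by day. These levels share the Day 0 libraries with the comparison above and are given as values only, as means over 5 libraries at Day 0 and 3 at each later day. HSP70 averaged 18056, 3351, 760.2 and 251 CPM at Days 0, 2, 4 and 6, UGT73B2 4982, 402, 88.6 and 30.7 CPM, and NIA2 16684, 2506, 832 and 310.1 CPM, each lower at every step. AT4G12490 (6.35, 13908, 21247 and 12979.7 CPM), EXT3 (7.51, 2659, 6482 and 1440.5 CPM) and CYP79B2 (1.08, 519, 634 and 106 CPM) were highest at Day 4. CKX2 was highest at Day 2, with 0, 8.98, 2.19 and 0.559 CPM. The receptor gene AHK4, at 0.215, 19.4, 24.6 and 25.6 CPM, had most of its Day 6 level by Day 2, whereas MCM2, at 0.177, 5.12, 25.2 and 44.7 CPM, and CBF5, at 9.68, 123, 186 and 244 CPM, were higher at each later day. The G1 cyclin gene CYCD3;1 (0.89, 1.39, 14.7 and 33 CPM) and ESR1 (0, 0.346, 30.1 and 111 CPM) were low through Day 2.

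**Figure D5:**
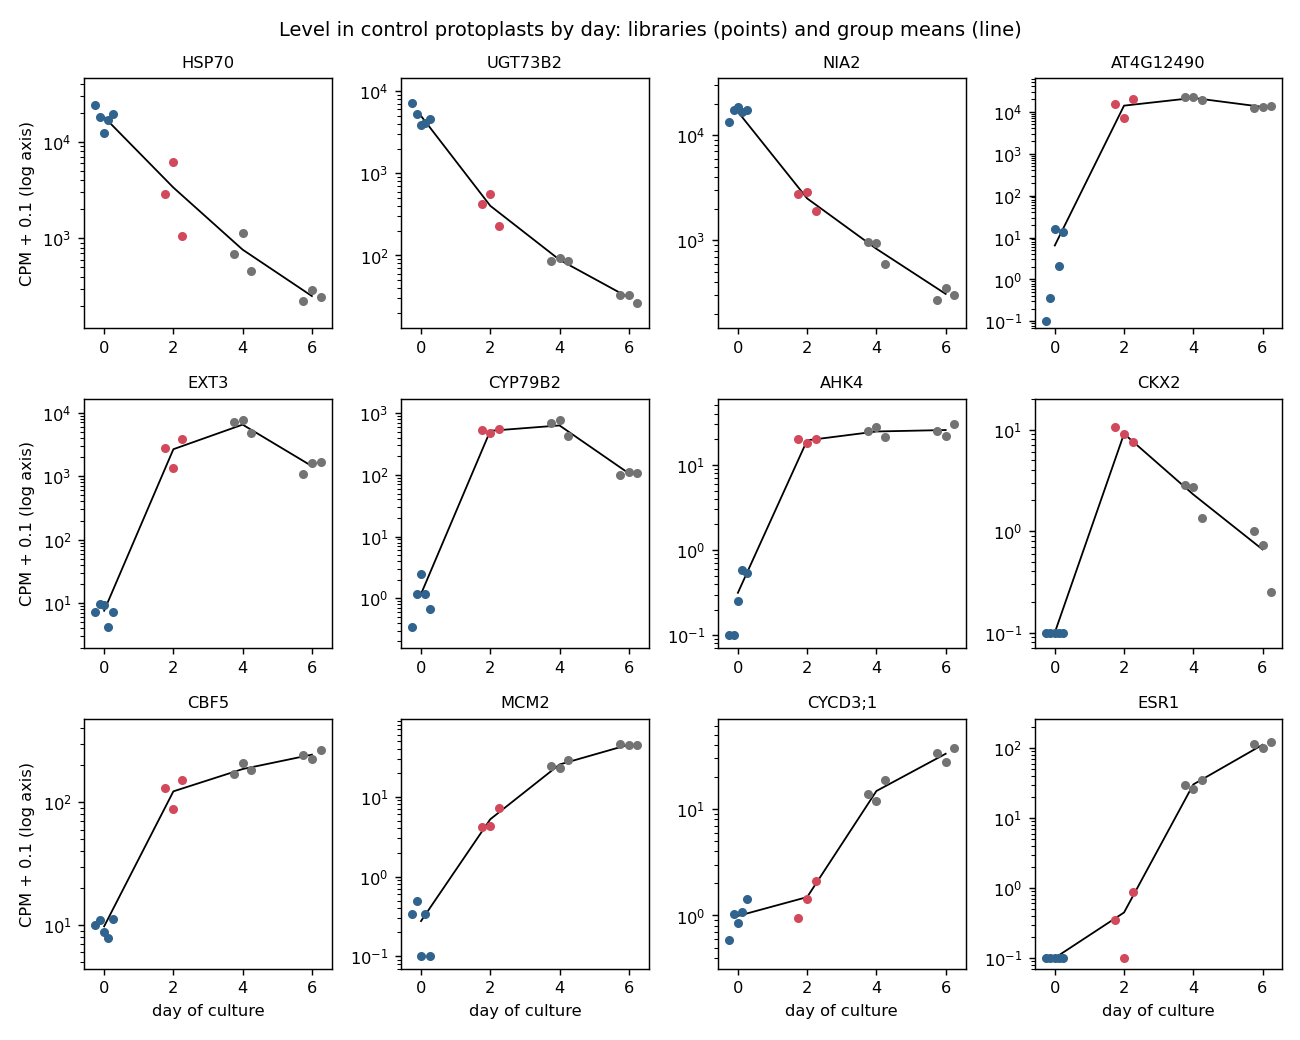
CPM + 0.1 (log axis) of 12 genes in control protoplasts at Days 0, 2, 4 and 6 of culture (horizontal axis), a point per library and a line through the group means. HSP70, UGT73B2 and NIA2 decline throughout, CKX2 peaks at Day 2, and CYCD3;1 and ESR1 remain low until after Day 2.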

How the data were processed

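Poly(A) RNA of 8 libraries was compared, 3 of Day 2 control and 5 of Day 0 protoplasts, made with a stranded mRNA kit and sequenced single-end. The authors mapped reads with Bowtie 0.12.9 to TAIR10 and deposited a count per splice variant with no normalization. The methods speak of uniquely mapped reads. How reads that match several loci were counted, and whether strand was used, is not given in the sources used here. The lowest-numbered variant of each locus was taken, and these counts summed to 102.3 to 103.3% of the mapped reads in the 8 libraries.

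Groups followed the labels. Counts were filtered with filterByExpr, scaled with TMM factors and fitted in edgeR 4.0.16 (R 4.3.3) by quasi-likelihood over the 26 libraries of replicates 4 to 8, which share 1 estimate of the spread, with no block. DESeq2 1.42.0, other scalings, filters, thresholds, count definitions, a replicate block, an 8-library fit, nuclear loci alone and leaving out each library were alternatives. Python 3.11.15 with pandas 2.3.3, numpy 2.4.6 and matplotlib 3.10.9 made summaries and figures. The fit was tested on simulated data of 18887 genes, where 197 of 200 genes changed 8-fold were recovered with 1 false call. In that simulation Day 2 was drawn from the Day 0 means, and as many genes were raised as lowered. Genes scarce at Day 0 were not among those changed. It therefore cannot show how the fit handles the unequal directions, the scaling shift or the floor-level rises of the real data.

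The members, gene lists and tests were chosen with earlier results of these data known. Named genes were the 10 largest changes in each direction among called loci whose libraries did not overlap and whose higher mean was at least 20 CPM, the 10 called loci with the largest share of counts on each day, and up to 4 called members per list, up to 2 in each direction, with every member of the wound, histone acetyltransferase and TAA1/TAR and YUC lists. Genes named outside this rule were chosen after their values were seen. A count of 3 in a library was the floor for folds against a group without higher counts, and floors cover counting error only. Of 25713 loci 25341 matched the RefSeq annotation of TAIR10.1, which gave names, promoters and overlaps. Coordinates are those of TAIR10.1. Of 208 named nuclear genes 44 overlap another annotated gene.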

Additional observations from a re-analysis of the deposited data

Results flagged for a closer look

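Day 0 had 5 libraries, enough for Dixon's test of a single far value (critical value 0.71), and chance flags about 1 in 20 such groups. Of 138 genes tested, 16 had a library far from the other 4, and in 7 of them it was Day 0 replicate 4, the library that also stood apart on the second principal component. In replicate 4 the lowest values were 12000 CPM for GSTF8 (others 15600 to 16600), 4260 CPM for ACX1 (5380 to 5610), 9.9 CPM for GSTF9 (14.8 to 16.2), 8.94 CPM for CKX7 (18.1 to 20.8) and 0 CPM for YUC8 (1.07 to 1.49). The same library was highest in EXT4, at 460 CPM (others 163 to 228), and in ETG1, at 0.483 CPM. Replicate 6 was highest in BGLU30, at 74.1 CPM (others 27.4 to 36.5), and in ACA2, at 60.5 CPM (42 to 47.3), and lowest in ABI2, at 269 CPM (318 to 329). A further 6 genes, and ETG1, were at 0 in the other 4 libraries, so that the far value rests on 3 counts or fewer. They were BGLU28 with 0.299 CPM and CYCD4;1 with 0.149 CPM in replicate 6, LAC7 and PLT3 with 0.146 CPM each in replicate 8, DIR6 with 0.134 CPM in replicate 5 and TAA1 with 0.122 CPM in replicate 7. In each of these genes but TAA1 and YUC8, which were not tested, the direction of the change did not turn when the far library was left out.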

How the results depend on the processing

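No locus called in 1 direction was called in the other under any setting run. Total-count scaling gave 5649 higher and 310 lower, a log2 fold change over 1 with adjusted p under 0.05 gave 6140 and 3718, and a minimum of 5 CPM gave 1958 higher. Leaving out 1 library gave 3115 to 3700 higher and 795 to 1245 lower, with both highest counts without Day 2 replicate 5 and both lowest without Day 2 replicate 6. The cause was not tested.

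With total counts the median of all loci was 1.02, and with upper-quartile factors 0.49, so the list medians that follow stayed below that of all loci. With total counts the medians of these lists turned positive: G1/S regulators 0.54, autophagy 0.04, chlorophyll synthesis 0.53, early stress 0.45, glutathione S-transferases 0.65, jasmonate 0.60, xenobiotic response 0.01, sugar starvation 0.73 and vascular markers 0.78, while UDP-glycosyltransferases stood at 0.00. With upper-quartile factors the list medians were 0.00 for G1/S regulators, 0.13 for glutathione S-transferases, 0.08 for jasmonate, 0.21 for sugar starvation and 0.26 for vascular markers. PCNA1 was at 0.70 and WIND1 at 0.53 with total counts, and at 0.16 and 0.00 with upper-quartile factors. In the 8-library fit the medians were -0.52 for developmental cell death, where 10 members were tested and not 17, and 0.01 for sugar starvation. The median was 0.01 for vascular markers with nuclear loci alone. With no filter it was 0.00 for TAA1/TAR and YUC genes, since loci with hardly any counts entered. Leaving out 1 library gave -0.28 to 0.11 for G1/S regulators, -0.35 to 0.09 for sugar starvation, -0.44 to 0.27 for vascular markers and -0.71 to 0.11 for PCNA1.

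Same-numbered libraries of both days deviated together little (r = 0.010, 0.016 and 0.094), and unlike-numbered ones gave r = -0.125 to 0.137. Whether same-numbered libraries share an isolation is not given, and these values cannot decide it. With the replicate block 3557 loci were higher and 945 lower, 3419 and 877 of them shared with the fit without it. GH3.6 (-1.93) and psbD (1.89) lost their calls in that fit, psbA (2.66), PSB33 (-1.97) and ACX1 (-2.00) in the 8-library fit, and CESA2 (2.00) with all splice variants summed. With upper-quartile factors SRC2, PSB33, GSTU19, RNS1, CA1, IAA16, ACX1, ABI1, E2Fb and GH3.6 were at -1.99 to -1.77 and lost their calls. With the promoter window ending at the start, the E2F element was in 21.9% of S phase genes (1.03% of all promoters) and the telo box in 25.3% of ribosomal protein and 19.4% of ribosome biogenesis genes (3.71% of all).

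At Day 2 replicate 5 had the fewest counts, and a count of 0 allows up to 0.251 to 0.724 CPM, the level of 3 counts.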
